A study of Mus musculus with 3 samples.

Results

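Wide Pol2-S7p domains free of H3K27me3 were the enriched regions of the Pol2-S7p library that spanned at least 50 kb and shared not a single bp with a region of the H3K27me3 library. There were 506 of them among 22320 Pol2-S7p regions (2.27%), and they were 37.2% of the 1360 Pol2-S7p regions of that width. They summed to 40.2 Mb, or 15.4% of the length of all Pol2-S7p regions. They were selected on their measured width and on the absence of H3K27me3, so both are given here as a description and without a test.

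The regions came from chromatin immunoprecipitation sequencing (ChIP-seq) of untreated cells of the F123 line, male hybrid mouse embryonic stem cells (mESCs) from a cross of S129/Jae and Cast mice that had been grown on mitotically inactivated embryonic fibroblasts and then passaged on gelatin without them. There were 3 libraries, 1 for H3K27me3, 1 for RNA polymerase II (Pol2) phosphorylated on serine 5 (Pol2-S5p) and 1 for Pol2 phosphorylated on serine 7 (Pol2-S7p). With 1 library per mark no difference could be tested against replicates, and all values below describe these libraries. The region lists hold no reads and do not separate the Cast and S129 chromosomes. Sequencing depth, which the paper says its supplement gives, was not used here. Because each library pooled many cells, overlap of marks cannot be told apart from marks in different cells or on different alleles.

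RNA polymerase II carries a long C-terminal tail of repeats that is phosphorylated as it works. Serine 5 phosphorylation is placed early, around initiation and pausing, and is also known at promoters held by Polycomb, whereas serine 7 phosphorylation is associated with polymerase that goes on to transcribe. H3K27me3 is the histone mark of Polycomb repressive complex 2. A wide Pol2-S7p domain without it held no called H3K27me3 region, and other Polycomb marks were not measured here. At the record starts of 10 mESC marker genes, Pol2-S7p was present at 9 (all but Esrrb), against 1 of 12 feeder fibroblast markers (Fn1), 0 of 5 neuronal markers and 0 of 5 blood markers. On the longer marker lists used further on, Pol2-S7p was at the start of 11 of 27 fibroblast genes, 12 of 28 neuronal genes and 2 of 19 blood and immune genes.

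Sequences from a few selected domains are given first and do not stand for the content of most domains. The 54.0 kb domain at chr7:3198400-3252399 covered the miR-290 cluster, the major microRNA (miRNA) cluster of mESCs, and its mature miRNAs fell into groups by seed, the stretch that pairs with target transcripts. The mature sequences below are RefSeq entries on GRCm38.p6 that lie inside this domain, written 5′ to 3′ with the seed (bases 2 to 8) in capitals, first the 3 that share the seed AAGUGCU and then the 3 that share CUCAAAC.
mmu-miR-291a-3p (chr7:3218968-3218989, plus strand): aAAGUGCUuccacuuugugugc
mmu-miR-294-3p (chr7:3220691-3220712, plus strand): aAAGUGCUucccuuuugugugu
mmu-miR-295-3p (chr7:3220815-3220837, plus strand): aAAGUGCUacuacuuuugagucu
mmu-miR-290a-5p (chr7:3218639-3218660, plus strand): aCUCAAACuaugggggcacuuu
mmu-miR-292a-5p (chr7:3219200-3219221, plus strand): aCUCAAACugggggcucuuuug
mmu-miR-293-5p (chr7:3220356-3220377, plus strand): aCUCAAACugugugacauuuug

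The promoter sequences below are the 200 bases upstream of a RefSeq start inside a domain (GRCm38.p6, 5′ to 3′ on the strand of the gene). Epha4 and Tbl1xr1 stand for the widest domains with 1 coding gene, and Zfp281, Tfcp2l1 and Trim71 for the pluripotency factors that start in a domain. Cstf3 and Cab39, chosen after their values were seen, stand for domains nearly without Pol2-S5p. Capitals mark every match on either strand to GGGCGG (the SP/KLF box), CCGGAA (ETS factors), GCATGCGC (NRF1), CCAAT (NFY), TATAAA (the TATA box), AANATGGC (YY1), CACGTG (the E-box) or TGACGTCA (the CRE).
Epha4 (chr1:77515089-77515288, minus strand): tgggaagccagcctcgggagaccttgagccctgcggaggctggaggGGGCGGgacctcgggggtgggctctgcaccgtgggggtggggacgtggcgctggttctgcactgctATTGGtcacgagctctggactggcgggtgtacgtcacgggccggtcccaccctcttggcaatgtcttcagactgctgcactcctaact
Tbl1xr1 (chr3:22076452-22076651, plus strand): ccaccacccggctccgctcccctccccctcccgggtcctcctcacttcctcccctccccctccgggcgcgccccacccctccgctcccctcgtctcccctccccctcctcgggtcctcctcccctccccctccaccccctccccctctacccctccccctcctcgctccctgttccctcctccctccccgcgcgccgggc
Zfp281 (chr1:136624701-136624900, plus strand): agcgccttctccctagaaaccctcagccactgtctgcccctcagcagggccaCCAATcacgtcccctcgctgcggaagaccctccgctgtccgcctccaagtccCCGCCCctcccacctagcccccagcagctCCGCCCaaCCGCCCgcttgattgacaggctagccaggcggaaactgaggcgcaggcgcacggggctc
Tfcp2l1 (chr1:118627745-118627944, plus strand): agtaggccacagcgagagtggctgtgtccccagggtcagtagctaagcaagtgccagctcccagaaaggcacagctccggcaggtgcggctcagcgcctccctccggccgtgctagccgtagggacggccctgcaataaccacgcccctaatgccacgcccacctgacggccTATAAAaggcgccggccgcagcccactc
Trim71 (chr9:114564370-114564569, minus strand): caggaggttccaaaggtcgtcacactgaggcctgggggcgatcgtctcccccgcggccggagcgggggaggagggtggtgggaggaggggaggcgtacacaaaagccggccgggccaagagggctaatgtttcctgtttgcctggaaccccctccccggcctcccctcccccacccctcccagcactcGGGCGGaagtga
Cstf3 (chr2:104590284-104590483, plus strand): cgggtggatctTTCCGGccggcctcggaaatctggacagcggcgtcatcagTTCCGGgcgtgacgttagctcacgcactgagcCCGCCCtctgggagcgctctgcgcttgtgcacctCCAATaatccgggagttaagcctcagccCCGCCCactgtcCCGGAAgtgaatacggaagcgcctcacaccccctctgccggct
Cab39 (chr1:85793241-85793440, plus strand): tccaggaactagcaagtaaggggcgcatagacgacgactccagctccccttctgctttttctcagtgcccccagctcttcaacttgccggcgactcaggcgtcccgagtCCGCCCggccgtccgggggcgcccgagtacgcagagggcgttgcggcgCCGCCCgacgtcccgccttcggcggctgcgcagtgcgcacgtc

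In these letters Tfcp2l1 held a TATA box and no SP/KLF box, Tbl1xr1 held none of the 8 motifs, and Cstf3 held 3 ETS and 2 SP/KLF matches. Over 250 bases upstream of each start, the SP/KLF box was in 57.2% of the 922 RefSeq promoters inside the domains (95% interval 53.9 to 60.4), in 60.6% of the 12413 promoters with Pol2-S7p and in 44.1% of all 20150. The ETS motif was in 28.6% (25.7 to 31.7), against 22.4% with Pol2-S7p and 15.4% of all. The NFY motif was as frequent inside the domains (34.4%) as over all promoters (35.0%), and the TATA box was in 6.62%, against 5.65% with Pol2-S7p and 11.2% of all. The remaining motifs were rare inside the domains and over all promoters, with NRF1 at 4.12% in the domains, 4.66% with Pol2-S7p and 3.05% of all, and YY1 at 5.75%, 4.39% and 3.66%. The E-box was at 9.22%, 8.61% and 6.78% and the CRE at 3.04%, 2.68% and 1.99% in the same order. These shares count letters in a window, the intervals are exact Clopper-Pearson and cover counting error only, and a match is not a bound site.

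The domains had a median width of 69.9 kb, with the middle 50% between 57.6 and 89.6 kb, and 88 of them reached 100 kb. The widest, 322.2 kb at chr9:21545000-21867199, held, among others, Carm1 (an arginine methyltransferase of histones), Smarca4 (the ATPase of the BAF chromatin remodelling complex), Spc24 (a kinetochore protein), Kank2, Dock6, Yipf2, Timm29 and Angptl8, and the edge of AB124611. The next by width were the 202.4 kb domain of Gtf2i and Gtf2ird1, the 197.2 kb domain over the noncoding gene Pvt1, the 195.0 kb domain of Epb41l4a, the 191.8 kb domain of Tanc1 and Wdsub1 and the 184.8 kb domain of Rnf139, Tatdn1, Ndufb9 and Mtss1. Pol2-S5p covered 77.2% of the 183.4 kb domain of Aff1 (a scaffold of the super elongation complex) and 57.9% of the 175.4 kb domain of the ubiquitin ligase gene Trip12, but 100% of those of Carm1 and of Dst. At the limit of the rule, the narrowest members were 50.0 kb over Cldn14, 50.2 kb over Phf3 and 50.2 kb over Kcnk5 and Saysd1, and the widest H3K27me3-free regions left out were 49.8 kb, over no coding gene, over Cdyl2, and over Kif23, Paqr5 and Rplp1.

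The deposited score, whose unit is not stated and which serves here only for rank, had a median of 9.45 in the domains against 12.7 over all Pol2-S7p regions. In this library wider regions tended to score lower (Spearman rho -0.31 over 22320 regions). The highest score, 49.7, belonged to the 60.4 kb domain of Malat1 and Neat1, the abundant nuclear RNAs of speckles and paraspeckles, and the next were those of Ahdc1 (35.7) and of the snoRNA host genes Snhg12 and Snhg3 with Rcc1 (35.5). The miR-290 domain scored 30.9. The lowest scores were the domains of the Y genes Uba1y and Kdm5d (1.15) and Eif2s3y (2.54), followed by Gm3072 (3.93). Reads of those genes could be shared with near-identical copies on the X or in multigene families, so their values are uncertain, as are those of Gm3417, Gm3435 and Gm3448 in the domain of Phf10.

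The domains did not overlap H3K27me3 by rule, and lay about as near to it as narrower H3K27me3-free regions did. The nearest H3K27me3 region lay a median of 26.6 kb away, against 31.8 kb for the 2417 H3K27me3-free Pol2-S7p regions of 10 to under 50 kb. It was within 5 kb of 72 domains (14.2%) and within 100 kb of 436 (86.2%), near the 12.4% and 83.5% of those regions. None of the coding starts inside a domain had H3K27me3 in the 2 kb window around it. The rule fixed this, except for starts within 1 kb of a domain end. Some domains lay near each other, with 106 (20.9%) having another within 100 kb. The median distance between neighbouring domains was 2079.6 kb, and the share within 100 kb was not measured for other regions. Of the neighbouring pairs, 5 lay within 1 kb, among them Zfp281 and the gene-free domain of Platr22. Another Pol2-S7p region of any width lay within 1 kb of 48 domains.

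**Figure D1:**
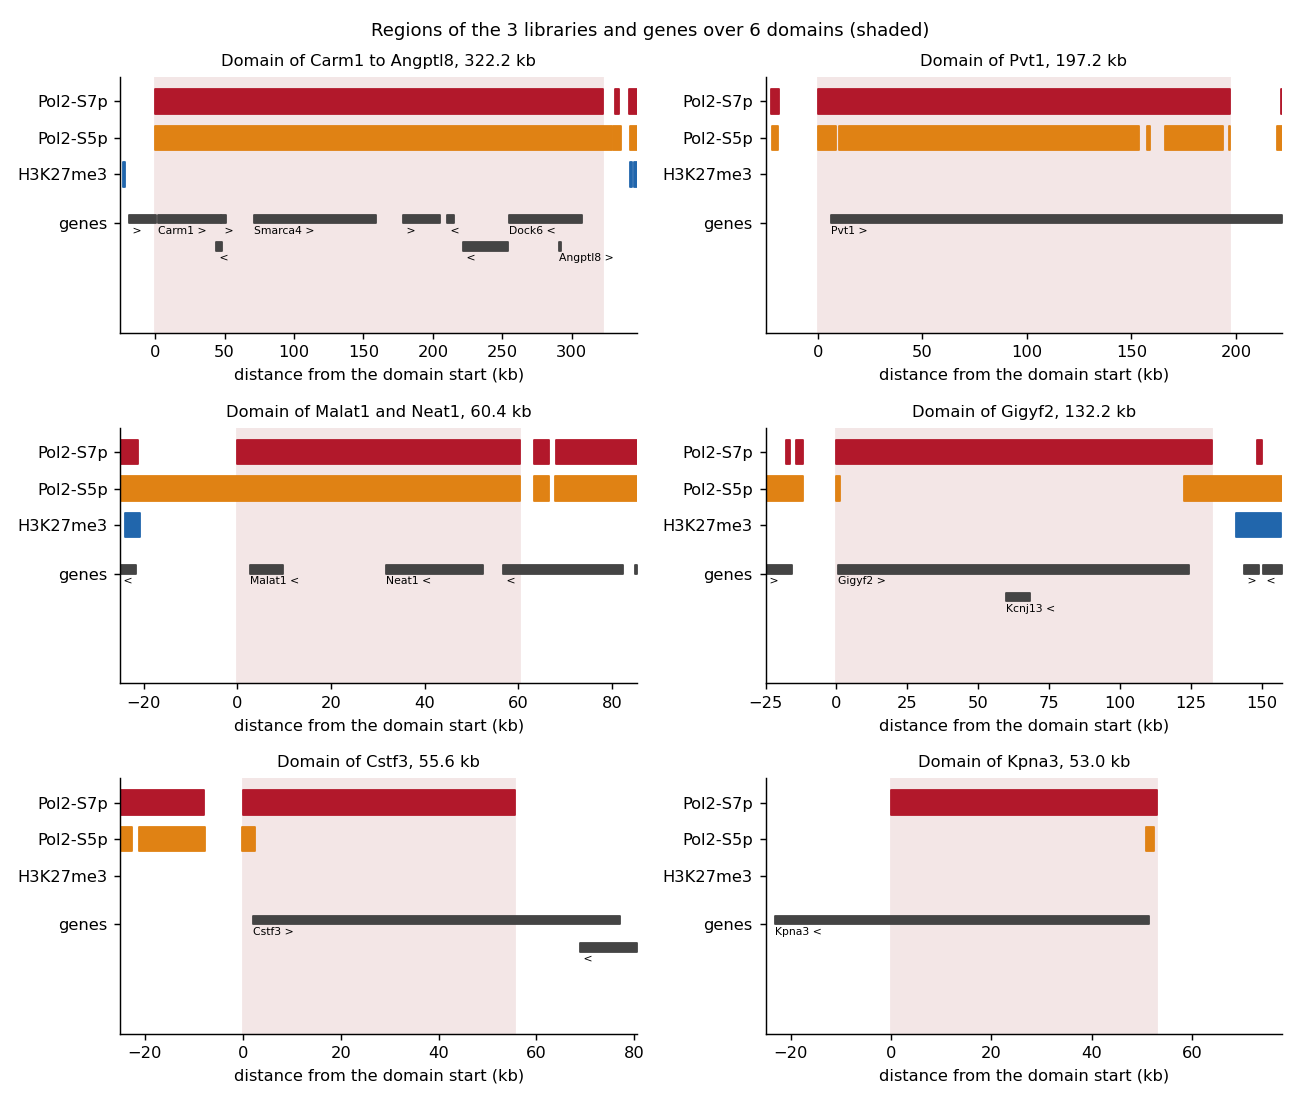
Regions of each library (coloured bars) and genes (dark bars, some of them named, > or < giving the strand) over 6 domains and 25 kb on either side, as distance in kb from the domain start, with the domain shaded. Pol2-S5p filled 100% of the Carm1 to Angptl8 domain and of the Malat1 and Neat1 domain, and sat mainly near the gene start in those of Cstf3 (4.68%) and Kpna3 (3.02%).

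Most of the length of the domains lay in protein-coding genes. Of 21938 protein-coding genes, 923 started in a domain (background 4.21%), which was 7.14% of the 12935 with Pol2-S7p in the 2 kb window around the start. A further 210 coding genes reached into a domain from a start outside every domain, and 754 lay wholly inside. Of 13374 long noncoding RNA (lncRNA) genes, 400 started in a domain (2.99%). Coding genes covered 80.2% of the length and their exons 11.8%, a further 13.8% lay within 50 kb past a coding gene end, and 5.96% lay elsewhere.

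Most domains held few genes. There were 174 with 1 coding gene (34.4%, interval 30.3 to 38.7), 149 with 2, 87 with 3, 78 with 4 or more and 18 with none. Of the 854 wide Pol2-S7p regions that touched H3K27me3, 25.3% held 1 coding gene and 32.0% held 4 or more. The most crowded domain, 80.6 kb on chromosome 19, touched 14 coding genes, among them Syvn1 and Vps51 of protein quality control and vesicle tethering, the ribosomal protein gene Fau, Mrpl49, Zfpl1, Snx15 and Cdca5. The 104.4 kb domain of Hagh, Nubp2, Mapk8ip3, Mrps34 and Nme3 and the 93.8 kb domain of Ndufa3, Prpf31, Cnot3 and Rps9 held 9 each.

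Coding genes that started in a domain had a median length of 24.2 kb, against 17.4 kb over all coding genes and 15.3 kb for those in wide regions with H3K27me3. By length, 2.97% of genes under 10 kb started in a domain, 5.20% of those of 10 to 50 kb, 6.28% of 50 to 100 kb, 2.74% of 100 to 200 kb and 1.70% of 200 kb or more. The share was highest for genes of 50 to 100 kb, about the width of a domain. Among 387 pairs of neighbouring coding genes inside a domain, 43.4% lay on the same strand, 23.0% diverged and 33.6% converged. The convergent share was 23.8% over all neighbouring coding genes and 29.4% in wide regions with H3K27me3.

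Domain ends were placed by the nearest coding gene. Of the 1012 domain ends, 33.9% lay within 5 kb of a coding gene start and 24.6% within 5 kb of a coding gene end, and 51.2% (interval 48.1 to 54.3) were near either. A further 24.8% lay inside gene bodies, 13.4% within 50 kb past a gene end and 10.6% elsewhere. Of the 40.2 Mb in the domains, 6.73 Mb lay within 5 kb of a coding start. The places of ends were not measured for other Pol2-S7p regions, so these shares are a description only. In the 174 domains with 1 coding gene, 76 held the whole gene, 38 held the start and lost the end, 41 held the end and lost the start, and 19 lay within the gene. The domains of Dst and Enox1, whose genes are longer than their domains, were of the third kind. Dym and Etl4 each had 2 domains, which for Dym held the start in one and the end in the other, and for Etl4 lay within the gene in one and held the end in the other.

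In the 76 domains that held 1 whole coding gene, Pol2-S7p reached further past the gene end than before the start. The median reach was 6.22 kb past the end (middle 50% 4.21 to 9.40 kb) and 1.64 kb before the start (0.322 to 5.59 kb), and 58 of 76 reached further past the end. The domain of Slc37a3, a sugar phosphate transporter gene, ran on for 50.4 kb past the end and 0.124 kb before the start, and that of the kinase gene Sik1 for 42.5 kb and 3.40 kb. The called domain of Zfp281, a zinc finger factor of the pluripotency network, had 68.3 kb before its start and 17.9 kb past its end. However, the 126.8 kb domain of Platr22 (from chr1:136648400) began less than 1 kb beyond it. With both joined, Pol2-S7p would reach further past the end of Zfp281 as well. Noncoding genes can fill such stretches: the Zfp281 domain also held the lncRNA gene Platr23.

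**Figure D2:**
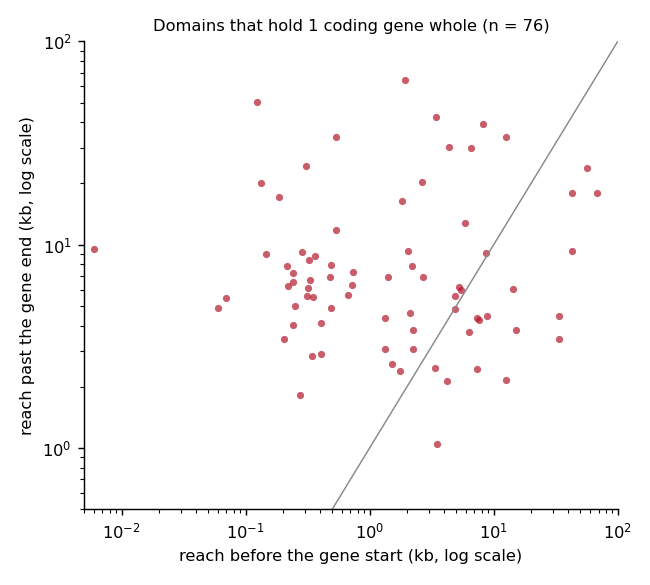
Reach of Pol2-S7p before the start and past the end of the gene, in kb on log scales, for the 76 domains that held 1 whole coding gene; each point is a domain and the line marks equal reach. The 58 points above the line reached further past the end.

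Pol2-S5p, which the rule did not use, lay over most of the length of the domains. It covered 84.2% of their summed length, against 89.4% in wide regions with H3K27me3, 78.1% in H3K27me3-free regions of 10 to 50 kb and 83.4% over all Pol2-S7p regions. The median domain had 94.5% of its length in Pol2-S5p (middle 50% 75.7 to 99.7%), and 297 (58.7%, interval 54.3 to 63.0) had 90% or more. That share was close to the 58.5% of all Pol2-S7p regions and below the 71.1% (67.9 to 74.1) of wide regions with H3K27me3. Pol2-S5p filled 116 domains (22.9%) from end to end as part of a single Pol2-S5p region, 63 (12.5%) had under 50%, and 1 had none.

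The extent of Pol2-S5p depended on which of its regions were kept. When only Pol2-S5p regions above their median score were used, which are narrower (median 1.20 kb) and hold 31.1% of the Pol2-S5p length, cover fell to 29.9% in the domains, 34.6% in wide regions with H3K27me3 and 26.6% in H3K27me3-free regions of 10 to 50 kb. The order of these 3 sets was the same under either choice, but all Pol2-S7p regions, just below the domains before, were above them at 33.4%. The share with 90% or more then was 18.6% of the domains, 26.1% of wide regions with H3K27me3 and 18.5% of regions of 10 to 50 kb, against 29.7% of all Pol2-S7p regions, so the closeness of the domains to all Pol2-S7p regions was not kept.

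**Figure D3:**
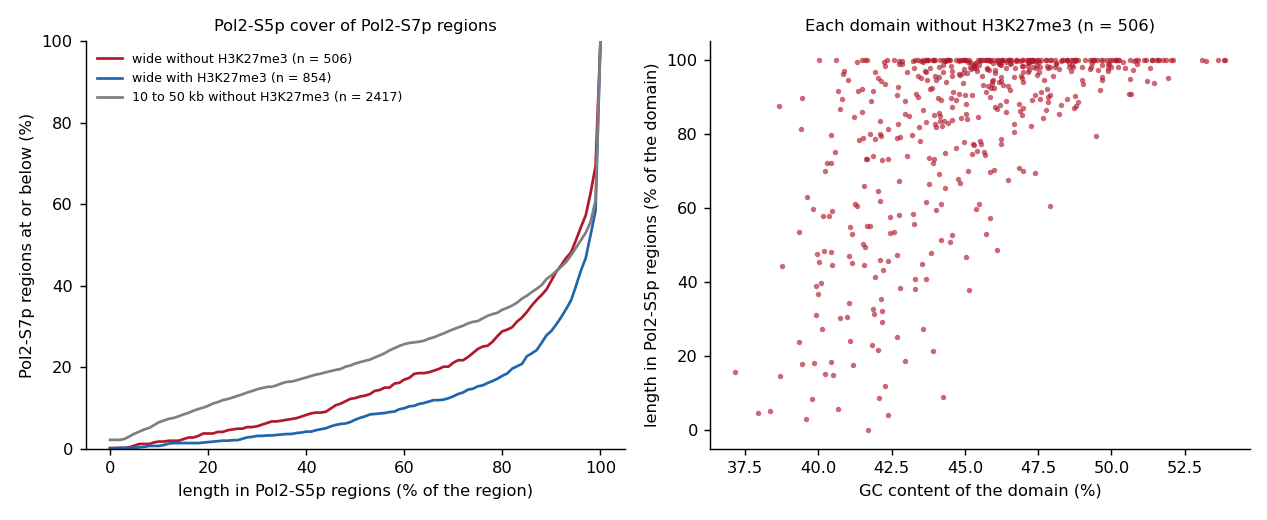
Left, the cumulative share of Pol2-S7p regions (%) by the length in Pol2-S5p regions (%) for the 506 domains, 854 wide regions with H3K27me3 and 2417 H3K27me3-free regions of 10 to 50 kb. Right, the same cover against GC content (%) with 1 point per domain; 51 of the 127 domains of lowest GC content had under 50% in Pol2-S5p and none of the 126 of highest.

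Starts inside the domains nearly always carried Pol2-S5p. Of 923 coding starts, 905 (98.0%, interval 96.9 to 98.8) had Pol2-S5p in the 2 kb window, against 66.9% of all coding promoters and 98.8% of the 12935 coding promoters with Pol2-S7p. The share was thus near that of Pol2-S7p promoters in general. Pol2-S5p spanned the whole window at 65.5% of the 923 and, among regions above the median score, touched it at 53.7%. The 18 starts without it included those of Mog (a myelin protein), Kcnj13 (a potassium channel), Ldhc (the testis lactate dehydrogenase), Apobec2, Dnajb7, Tmem225 and the olfactory receptor genes Olfr985 and Olfr986. Kcnj13 lies inside Gigyf2, and Olfr985, Tmem225 and Olfr986 shared a 121.4 kb domain with Zfp202.

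The 63 domains with under 50% Pol2-S5p, a class set by that cover itself, had Pol2-S5p at most of their promoters. They held 92 coding starts, 86 of which (93.5%) had it. Pol2-S5p covered 47.3% of their length within 5 kb of a coding start, 31.2% at 5 to 10 kb, 26.1% at 10 to 20 kb and 19.3% at 20 to 40 kb. Further away the cover was higher again, at 39.4% of the 0.692 Mb at 40 to 80 kb and 41.2% of the 0.0820 Mb beyond. Over all 506 domains the cover varied less with distance. In the same order of steps it was 85.4%, 83.1%, 81.7%, 81.4%, 86.9% and 91.2%. The genes starting in the 63 domains had a median length of 37.2 kb, against 22.1 kb in the domains with 90% or more. GC content and score differed with the class as well. GC content had medians of 41.5% under 50% cover, 44.1% at 50 to 90% and 46.5% at 90% or more, the repeat share was 30.3%, 28.6% and 25.2%, and the Pol2-S7p score was 6.98, 8.64 and 10.4.

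Some of these domains had Pol2-S5p over little more than a start, and others had most of it away from one. In the 53.0 kb domain of Kpna3, an importin gene, the only Pol2-S5p was a 1.60 kb region over the start, 3.02% of the domain. In that of Cstf3, a subunit of the cleavage stimulation factor for 3′ ends, Pol2-S5p was a 2.60 kb region over the start (4.68%). Cab39, which activates the kinase LKB1, had 1.60 kb over the start and 3.80 kb near the far end of the domain (8.65%). Gigyf2, a regulator of translation, had 1.20 kb over the start, 9.80 kb at the far end of its 132.2 kb domain and a gap of 121.2 kb between them (8.32%). Thoc1 with Usp14 (5.09%), Cspp1 with Arfgef1 (5.78%), Gak with Tmem175 (9.01%) and Fbxo38 with Spink10 (11.9%) had at most 4 Pol2-S5p stretches each. In the domain of Cspp1 with Arfgef1 these lay 62.0 and 91.1 kb from the nearest coding start. The other domains had a stretch over a start and the rest at least 10.3 kb from any coding start. Gm3072, the domain with none, is a gene of a multicopy family.

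Across the 506 domains the Pol2-S5p cover was higher at higher GC content (Spearman rho 0.59) and lower at a higher repeat share (-0.27), with little relation to width (0.06). The points share the same libraries. In the 127 domains of lowest GC content, 37.2 to 42.8%, the median cover was 59.2% and 51 domains had under 50%. In the next 127 it was 91.4%, in the following 126 it was 97.6%, and in the 126 domains of highest GC content, 47.3 to 53.9%, it was 99.1% with 0 domains under 50%. The same relation held in wide regions with H3K27me3 (rho 0.51) and in H3K27me3-free regions of 10 to 50 kb (0.57), so it was not particular to the domains. Wide regions with H3K27me3 also had a higher GC content (median 48.1%) than the domains (45.2%). The part of GC content in the Pol2-S5p cover was not tested.

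Along long genes, Pol2-S5p was present on both sides of the gene body. For the 216 genes of 50 kb or more that started in a domain, its mean cover over 10 equal segments of the gene was 76.2% in the first, 66.7% in the seventh and the eighth, 73.0% in the last, and 76.7% in the 5 kb past the gene end, before it fell to 55.1% and 43.8% in the next steps of 5 kb. Pol2-S7p, which is partly fixed by the rule, was at 93.7% in the first segment, 76.8% in the last, 75.0% in the first 5 kb past the end and 48.3% in the next. In the first segment 145 of the 216 genes were filled with Pol2-S5p and 1 had none, and in the last 129 were filled and 34 had none.

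Restricting the view to the 127 genes of 50 kb or more that lay wholly inside a domain, an alternative chosen after the data were seen, gave 80.7% in the first segment, 78.6% in the seventh, 85.8% in the last and 88.2% in the 5 kb past the end. In the 242 such genes inside wide regions with H3K27me3 the course was similar, at 88.5%, 86.4%, 93.6% and 90.7%. In the 76 domains with 1 whole coding gene, Pol2-S5p covered 71.2% of the length before the start, 81.1% of the gene and 83.0% of the length past the end. The Pol2-S5p region over the start, present in 75 of these, reached the gene end in 26 (34.7%) and stopped before the domain end in 55.

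**Figure D4:**
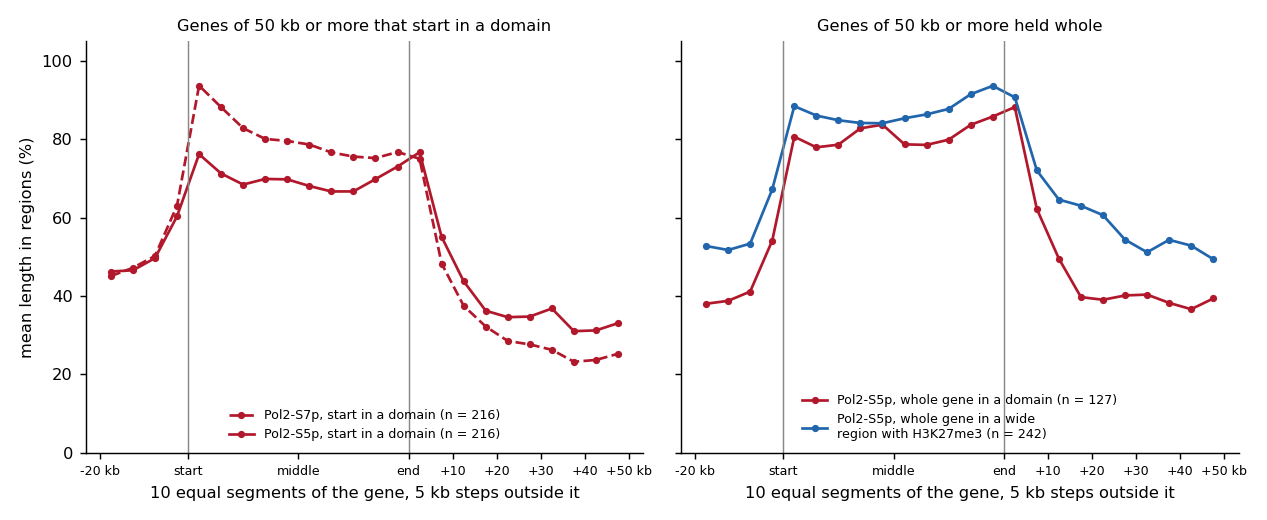
Mean cover (%) in 10 equal segments of the gene and in 5 kb steps before the start and past the end, for the 216 genes of 50 kb or more that started in a domain (left, Pol2-S7p dashed and Pol2-S5p solid) and for Pol2-S5p over genes of that length held whole by a domain (127) or by a wide region with H3K27me3 (242) (right). Pol2-S5p in the 216 genes was 76.2% in the first segment, 66.7% in the seventh and 76.7% just past the end.

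The domains held genes of basic cell functions. No Hox gene or listed developmental transcription factor started in one, which the rule nearly fixed by barring H3K27me3. Of 51 DNA replication and repair genes, 13 started in a domain (25.5%, where 4.21% of all coding genes and 7.14% of those with Pol2-S7p at the start did), among them Prim1 and Prim2 (the subunits of primase), Orc2, Mcm5, Mcm6 and Mcm10 (licensing and the replicative helicase), Pcna (the polymerase clamp), Blm and Xrcc5 (repair of double-strand breaks), and Fancd2 and Brca2. Their domains ranged from 174.4 kb for Prim1 to 52.2 kb for Mcm5 and Mcm10, and their Pol2-S5p cover from 29.1% for Brca2 to 100% for Fancd2, Prim2 and Mcm10. Of the 51, 49 had Pol2-S7p at the start, which put the 13 at 26.5% of these, and 6 started in a wide region with H3K27me3 instead. Those wide regions held 2316 coding starts and more members than the domains for most other housekeeping lists. Examples were translation (15 against 7), ribosomal proteins (20 against 9) and nuclear pore (12 against 7). Chromatin remodelling had 5 there against 6, and the chaperone, proteasome and cohesin lists were equal. Housekeeping genes thus also started in wide regions with H3K27me3. Those regions held more coding starts than the 923 of the domains, so the counts do not compare how frequent such genes were. The lists were written with earlier results of these data known, and their counts are a description without a set test.

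Nearly all genes of the housekeeping lists had Pol2-S7p at the start, so 7.14% is the nearer background for their shares. Chaperone genes (6 of 27, 22.2%) included Hspa5, Cct6a, Dnaja2, Trap1 and the pair Hspd1 and Hspe1, the chaperonin and its partner, which shared a 60.8 kb domain filled by Pol2-S5p. Nuclear pore and transport genes (7 of 37, 18.9%) included Nup133 (139.0 kb, 100% Pol2-S5p), Seh1l (44.6%), Nup155 (23.1%) and the export receptor Xpo1 (78.8%). Of chromatin remodelling genes (6 of 35, 17.1%), Smarca4, Arid1a, Smarcc1 and Actl6a belong to BAF, and Baz2a and Atrx to other complexes. The proteasome and ubiquitin system had 10 of 59 (16.9%), with Trip12, Uba1, Psmb3 and Psmb7 among them. In both lists the cover ran from 37.9% (Psmb7) to 100% (Smarca4, Atrx, Psmb3, Usp9x).

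Genes that make and translate RNA formed the next lists. Translation factors and aminoacyl-tRNA synthetases had 7 of 46 (15.2%), among them Eprs (99.9% Pol2-S5p), Cars (100%), Eef1a1 (97.4%), Dars (47.0%) and Eif2s2 (17.5%). The list of Pol2, elongation and Mediator genes had 7 of 51 (13.7%), including the Pol2 subunit genes Polr2d and Polr2i, the kinase gene Cdk7, and Supt6, Leo1, Ccnt1 and Aff1, which act in elongation. Splicing and RNA processing had 5 of 53 (9.43%), where Sf3b1 (18.2%) and Cstf3 (4.68%) had little Pol2-S5p and Prpf31 (87.4%) and Dhx9 (91.7%) had much. Ribosomal protein genes, which are short, had 9 of 78 (11.5%), including Rpl32, Rpl4, Rpl12 and Fau.

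The other housekeeping lists ranged from 5.17% to 11.1%. Cohesin, condensin and mitosis had 5 of 46 (10.9%), among them the cohesin genes Smc1a, Smc3 and Wapl, glycolysis 2 of 18 (11.1%, Gapdh and Ldha), vesicle traffic and motors 4 of 40 (10.0%, Myh9, Dync1li1, Rab1a and Myo9b), cell cycle 2 of 33 (6.06%, Ccnb1 and Cdk2), oxidative phosphorylation 2 of 37 (5.41%, Atp5b and Ndufb5), and histone and DNA modifying enzymes 3 of 58 (5.17%, Carm1, Kdm5c and Tet2). Of 41 pluripotency factors, 38 had Pol2-S7p at the start and 4 started in a domain (9.76%). These were Zfp281 (91.4 kb, 86.4% Pol2-S5p), Tfcp2l1 (60.4 kb, 100%), Trim71 (59.8 kb, 100%) and Fbxo15 (56.2 kb, 98.9%).

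The lists with none in a domain were the 39 Hox genes, 63 developmental transcription factors, 19 blood and immune markers and 26 replication-dependent histone genes. The rule nearly fixed the first 2 counts, since all 39 Hox starts and 62 of the 63 developmental factor starts had H3K27me3. The histone genes all had Pol2-S7p and are short, with a median length of 0.723 kb. Of 28 neuronal markers only Stmn2 (61.4 kb, 49.5% Pol2-S5p) and of 27 fibroblast markers only Fn1 (97.6 kb shared with Atic, 95.7%) started in a domain.

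**Figure D5:**
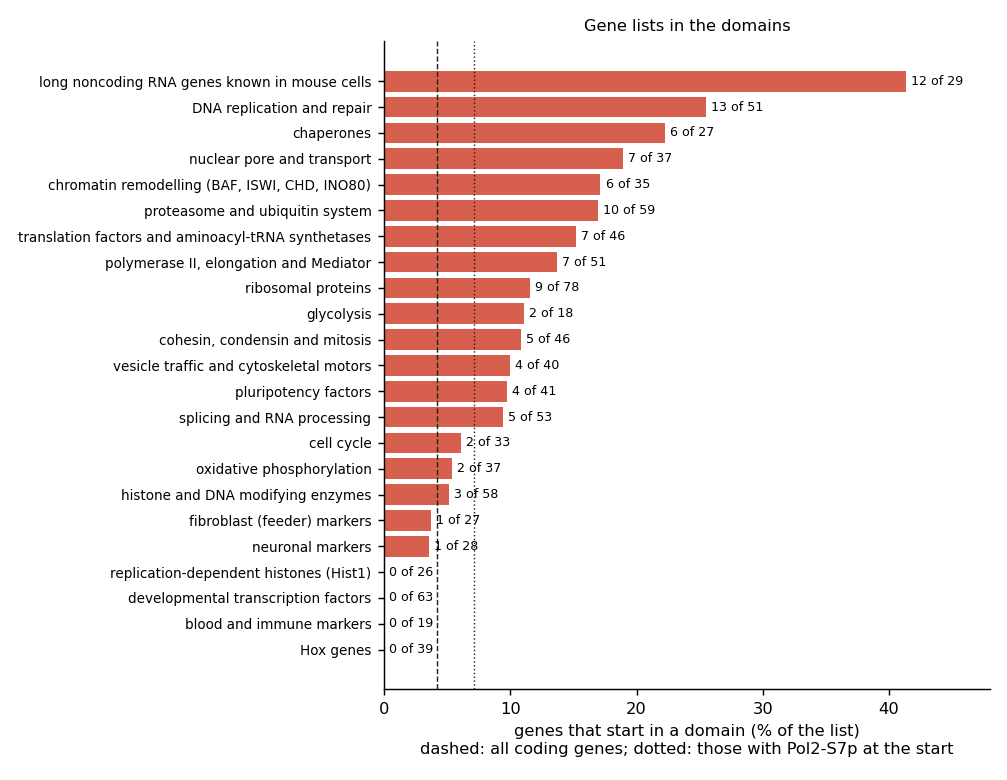
Share (%) of each gene list that starts in a domain, with the count and list size beside each bar; the dashed line is the 4.21% of all coding genes and the dotted line the 7.14% of those with Pol2-S7p at the start. DNA replication and repair stands at 13 of 51 among the coding lists, and 4 lists stand at 0.

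Several domains followed noncoding genes. Of 29 lncRNA genes known in mouse cells, 12 started in a domain (41.4%, where 2.99% of all lncRNA genes did). Of the 29, 28 had Pol2-S7p at the start, and of the 3952 lncRNA genes with Pol2-S7p there, 10.1% started in a domain. The list was likewise written with earlier results of these data known, and several of the 12 shared a domain, so the count is a description only. Xist, the RNA that silences the X chromosome in female cells, its antisense repressor Tsix and its activator Jpx lay together in a 97.0 kb X domain at chrX:103397000-103493999 with Tsx, filled to 99.8% by Pol2-S5p. ChIP-seq has no strand, so Xist and Tsix cannot be told apart there. Malat1 and Neat1 shared 1 domain, Snhg12 and Snhg3 another, and Gas5 (45.9% Pol2-S5p), Platr4, Epb41l4aos, Mirg and Pvt1 made up the rest.

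The 18 domains without a coding gene had a median Pol2-S5p cover of 89.2%. The widest were those of Pvt1 (92.3% Pol2-S5p), 46.2 kb from the start of the proto-oncogene Myc, of Gm19705 and Platr22 (126.8 kb, 100%), 23.5 kb from Zfp281, an X region 8.20 kb from Cdx4 with no lncRNA start (102.6 kb, 96.9%), of Firre, the X-linked nuclear RNA gene (82.0 kb, 97.1%), and an 81.4 kb region on chromosome 16 (85.5%). A domain of 63.0 kb at chr3:34733600-34796599, chosen after its values were seen, lay 83.2 kb from the start of Sox2, the pluripotency factor known for distant enhancers in mESCs, and had 99.7% of its length in Pol2-S5p. The Sox2 start itself carried all 3 marks. Another 3 gene-free domains lay within chr13:66540000-66762799, with 47.7 to 73.4% Pol2-S5p.

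miRNA genes were an added count, made after the data were seen. Of 1005 RefSeq miRNA hairpins, 525 were touched by Pol2-S7p and 91 lay in a domain (9.05% of all), in 44 domains, against 152 in wide regions with H3K27me3, and 90 of the 91 were touched by Pol2-S5p. The 57.4 kb domain of Mirg at chr12:109694200-109751599 held 37 hairpins, Mir379, Mir410 and Mir3072 of the imprinted Dlk1-Dio3 cluster among them, and the miR-290 domain held 8. Mir544, Mir666 and Mir291a were counted only through their mature miRNAs and are not in these hairpin counts. The Mirg domain had 89.2% of its length in Pol2-S5p and a score of 6.71, below the median of the domains, whereas the miR-290 domain, shared with Nlrp12, had 100% and ranked among the 10 highest scores. The 73 mature miRNAs of the first had 66 different seeds and no seed shared by more than 2, while the 17 of the second had 11 seeds, with the 2 groups of 3 printed above.

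The domains were spread over all chromosomes, from 51 on chromosome 1 to 5 on chromosome 19, with 16 on the X and 2 on the Y. As a share of coding genes, 7.23% of chromosome 16 and 7.10% of chromosome 14 started in a domain, against 2.23% of chromosome 19 and 1.64% of the Y.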

How the data were processed

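The authors mapped 75 bp single-end reads to mm10, strain variants masked, using Bowtie2 2.3.4.3 (per the labels and the study's methods), and found enriched regions in each library by a Bayesian change-point model (BCP) in its histone mode at default settings. The deposited tables give each region's position, its width in bp and a score of unstated unit, which was used only to rank or filter regions. Width, a value of the other kind, equals end minus start and is a multiple of 200 bp. No read counts were used here.

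Domains were Pol2-S7p regions of at least 50000 bp sharing 0 bp with H3K27me3. The domains, the gene lists and the comparisons were chosen with earlier results of these data known. Genes came from GENCODE release M21 (21938 coding, 13374 lncRNA), coordinates count from 1, and promoters, miRNAs and bases came from RefSeq on GRCm38.p6, the assembly called mm10. Of 921 coding symbols starting in a domain, 725 matched a RefSeq promoter there, and Mars1, Norad, Cyrano and Oip5os1 matched no gene. Named genes are those of the 15 widest domains, the 10 of highest and lowest score, the 10 of lowest Pol2-S5p cover, the 10 widest with 1 coding gene, the 5 with most coding genes, the 5 widest with none, up to 6 per gene list, and the 3 on either side of 50000 bp. Others, among them the further members of gene lists, genes of the 18 starts without Pol2-S5p, genes of extreme reach, and the domain near Sox2, were named after their values were seen. Some genes that this rule selects are not reported here. Intervals of shares are exact Clopper-Pearson ones at 95% and reflect counting error alone. No test was made, since each mark has 1 library. Interval functions were tested on simulated data. Python 3.11.15, NumPy 2.4.6, SciPy 1.17.1 and Matplotlib 3.10.9 were used.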

Additional observations from a re-analysis of the deposited data

How the results depend on the processing

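No paired analysis was possible because each mark has 1 library and no replicate. Of 74 values of 8 results under 15 alternatives, 45 stayed within 1.5 times (counts) or within the interval of the reported share, and 29 moved. Stricter or looser limits on the regions gave fewer or more domains by construction, and the causes of the other moves were not tested. The interval of a cover was that of a share of its size over as many domains or genes. Sequencing depth was not used here, so its effect on region widths was not measured. Leaving out the sex chromosomes, an alternative chosen after the data were seen, moved none, nor did asking for no H3K27me3 within 5 kb or joining Pol2-S7p regions over gaps of up to 1 kb.

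A minimum width of 100 kb gave 88 domains and 199 coding starts, with 89.1% of the length in Pol2-S5p, 70.5% of domains covered to 90% or more, 96.0% of coding starts with Pol2-S5p and 82.8% cover in the last segment of long genes. A minimum of 30 kb gave 1111 domains and 1636 coding starts, with 40.7% holding 1 coding gene. Using only H3K27me3 regions above their median score gave 834 domains and 1527 coding starts, and allowing H3K27me3 on up to 5% of the length gave 804 and 1573. Using only Pol2-S7p regions above their median score gave 112 domains and 308 coding starts, with 90.6% of the length in Pol2-S5p, 71.4% of domains covered to 90% or more, 99.0% of coding starts with Pol2-S5p, 17.0% of domains with 1 coding gene and 56.7% of ends within 5 kb of a gene start or end. Using only Pol2-S5p regions above their median score lowered these to 29.9% of the length, 18.6% of domains, 53.7% of starts and 21.3% in the last segment. With 50% or the whole length as the limit of cover, 87.5% or 22.9% of domains passed. Pol2-S5p spanned the whole window at 65.5% of starts, 40.9% of domains held 1 coding gene when at least 50% of a gene had to lie inside, and 29.7% of ends lay within 2 kb of a gene start or end.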
